A study of Mus musculus with 11 samples.

Results

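The general pluripotency genes are 10 protein-coding genes that mark pluripotent cells and early germ cells: Pou5f1, Sox2, Sall4, Zfp296, Utf1, Dppa2, Dppa4, Lin28a, L1td1 and Tdgf1. They were chosen by name, and their identifiers were found in the mouse GENCODE annotation of GRCm38. All 10 were present among the 39179 gene identifiers of the deposited table, and all 10 were among the 15781 genes tested. Polyadenylated RNA was sequenced from mouse cells of the C57BL/6 strain with an intact Mettl3 gene (WT) and from Mettl3 knockout (KO) lines. Mettl3 is the enzyme that writes N6-methyladenosine (m6A) on messenger RNA. Embryonic stem cells (ESCs) of either genotype grew without serum, with LIF, 1 to 3 µM of the GSK3 inhibitor CHIR99021 and 1 µM of the MEK inhibitor PD0325901, and each genotype had 3 libraries (replicates A, B and C). Embryoid bodies (EBs) are free-floating aggregates in which ESCs differentiate; they were kept in medium with serum for 8 to 21 days, and each genotype had 2 libraries (A and B). The labels give neither the knockout allele, nor the number of clones, nor the day of each EB library. They call the libraries biological replicates, so p-values measure the spread between them, and state that ESC replicate C was also used for a SILAC assay of proteins. By its title, the study asked how m6A bears on the way naive pluripotent cells enter differentiation.

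Oct4, the protein of Pou5f1, and Sox2 bind DNA side by side and hold the transcription network of pluripotent cells together. Sall4 and Zfp296 are zinc-finger proteins of that network. Utf1 is a chromatin-associated protein, and Dppa2 and Dppa4 are DNA-binding partners that act on chromatin in early embryos. Lin28a binds RNA and blocks the maturation of let-7 microRNAs, L1td1 is an RNA-binding protein derived from a LINE-1 element, and Tdgf1 encodes Cripto, the cell-surface co-receptor of the growth factor Nodal. Differentiating cells silence most of this set, at different speeds, while Sox2 stays on in neural progenitors and Sall4 and Lin28a in several early tissues.

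The promoter sequences of Pou5f1, Utf1, Lin28a and Tdgf1 are shown as examples of members whose values differ in pattern below. They come from the RefSeq promoter table (GRCm38.p6), which held 7 of the 10 members, and are printed 5′ to 3′ up to the base before the gene start. Capitals mark matches to GGGCGG, the GC box, or to CATTGT, a SOX-type box, on either strand.
Pou5f1 (chr17:35505782-35506017, plus strand): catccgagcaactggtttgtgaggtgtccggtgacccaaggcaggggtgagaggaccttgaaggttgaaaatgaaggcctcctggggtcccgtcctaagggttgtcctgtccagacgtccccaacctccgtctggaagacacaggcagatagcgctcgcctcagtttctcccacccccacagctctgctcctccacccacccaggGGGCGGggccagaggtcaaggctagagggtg
Utf1 (chr7:139943606-139943788, plus strand): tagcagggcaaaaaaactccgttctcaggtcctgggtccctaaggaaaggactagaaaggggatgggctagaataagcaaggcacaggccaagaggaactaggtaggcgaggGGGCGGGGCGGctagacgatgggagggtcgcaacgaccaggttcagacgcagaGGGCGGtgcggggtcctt
Lin28a (chr4:134018842-134019066, minus strand): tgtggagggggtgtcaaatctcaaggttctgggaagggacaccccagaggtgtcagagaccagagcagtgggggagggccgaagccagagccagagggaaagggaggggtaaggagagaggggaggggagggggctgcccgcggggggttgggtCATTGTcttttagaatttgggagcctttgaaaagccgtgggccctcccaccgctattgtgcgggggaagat
Tdgf1 (chr9:110946159-110946408, minus strand): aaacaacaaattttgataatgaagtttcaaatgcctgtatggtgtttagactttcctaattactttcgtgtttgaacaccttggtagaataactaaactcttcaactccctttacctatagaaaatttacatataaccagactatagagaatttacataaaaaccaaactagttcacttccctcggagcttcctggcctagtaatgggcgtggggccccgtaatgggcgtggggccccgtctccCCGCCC
Over 32851 promoter windows of 300 bases, 35.7% held GGGCGG, 12.6% held CATTGT and 3.15% held the octamer ATGCNAAT, all searched on both strands. Among the members' windows, the octamer was found in that of Zfp296, and CATTGT in those of Lin28a and of a second start of Pou5f1. GGGCGG was found in the windows of Pou5f1, Sox2, Utf1, Lin28a, Zfp296 and Tdgf1. The first 2 of the 3 GGGCGG matches in the Utf1 sequence share 1 base. A match describes these letters only, and factor binding was not measured.

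Coding sequences were searched for GGACT, the letters at the core of the consensus in which m6A is usually found. The match nearest to the end of the coding sequence is shown for each of the 6 members that had one, since Mettl3, the gene targeted in the KO lines, encodes the enzyme that writes this mark. Capitals mark GGACT, and a match is not a methylated site, because m6A was not measured.
Tdgf1 (chr9:110940771-110940791, minus strand): agcatccgGGACTccgtgtca
Utf1 (chr7:139944967-139944987, plus strand): atccttggGGACTtgcgccaa
Pou5f1 (chr17:35506317-35506337, plus strand): ctcaggttGGACTgggcctag
Sall4 (chr2:168756475-168756495, minus strand): ctgggcacGGACTccatcctg
Zfp296 (chr7:19580451-19580471, plus strand): tggtctggGGACTggtaaaac
L1td1 (chr4:98737530-98737550, plus strand): ccgtggagGGACTgaccaagg
Tdgf1 had the most for its length, with 2 matches in 513 coding bases, or 3.90 per kb. That is the 97.8th percentile of 13358 tested genes with a coding sequence, whose median was 1.07 per kb and of which 76.3% had at least 1 match. The last match of Tdgf1 lay 77 bases and that of Utf1 13 bases before the end of the coding sequence. The coding sequences of Sox2, Lin28a, Dppa2 and Dppa4 held no match.

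Reads in genes came to 3026837 and 3075007 in ESC replicate C of WT and KO, and to 8523027 to 15426894 in the other 8 libraries. Mettl3 itself had 392 to 425 normalized counts in WT ESCs and 131 to 138 in KO ESCs, and 368 to 399 in WT EBs and 147 to 154 in KO EBs. By limma, Mettl3 fell by 1.62 on the log2 scale in KO ESCs (SE 0.14, adjusted p = 0.0123). In KO EBs it fell by 1.34 (SE 0.17, adjusted p = 0.0143). ESC replicate C stood apart from A and B in both genotypes. The summed level of 15 fibroblast and matrix genes was 19983 to 24686 normalized counts in ESC replicates A and B. It was 2650 to 4948 in C and 12275 to 12640 in EBs. Fn1 alone had 9081 to 9672 in A and B, 1941 to 4457 in C and 6938 to 7828 in EBs. Thy1, singled out after its values were seen, had 92.2 and 97.2 in C and 29.4 to 57.2 in A and B. Against ESC replicates A and B, 10 of the 15 fell in WT EBs and 4 rose, beside 23.7% and 22.5% of all genes. The summed level of 15 endoderm genes was 97424 and 97889 in WT EBs, 1290 and 1352 in KO EBs and 1158 to 2423 in ESCs. In that endoderm list 11 of 15 genes passed as lower in KO EBs, beside 216 of all 15781 genes. Of the 15, 1 was listed at 0 in KO EBs. Sums of 11 germ cell genes were 3288 and 3404 in WT EBs, 1524 and 1537 in KO EBs and 1350 to 3290 in ESCs. Of these germ cell genes 1 passed as lower in KO EBs and none as higher, where 1.84% of all genes passed. With the replicate letter as a block, described below, 3 fell and 2 rose, beside 13.4% and 9.27% of all genes. The germ cell sums thus do not stand for every gene of that list. Sums of 12 neural genes, 14 mesoderm and muscle genes and 8 primed epiblast genes were 652 to 1910, 287 to 2287 and 1180 to 2346 over the 10 libraries. Every value here is from a bulk sample, in which fewer cells of a type and less RNA per cell cannot be told apart. The part that other cell types play in the members' values was not tested.

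Most members differed between ESC replicate C and replicates A and B. Within each genotype, 7 of the 10 members were over 2-fold higher in C than in the mean of A and B, namely Pou5f1, Utf1, Lin28a, Dppa2, Dppa4, Tdgf1 and L1td1. This held for 12.7% of all genes tested. Sox2 was over 2-fold lower in both, as were 24% of all genes. The members' median log2 difference of C from A and B was 1.85 in WT and 1.83 in KO, beside -0.20 for all genes in either genotype. Lin28a, the let-7 blocker, was 12.6-fold higher in C in WT and 160-fold higher in KO. Dppa2 was 11.1-fold and 12.7-fold higher, and Utf1 10.2-fold and 13.1-fold. At the other end Sall4 was higher by 0.21 and 0.33 on the log2 scale. With 1 library in C for each genotype these folds have no test. C was shallower, was the replicate used for SILAC and had the low fibroblast sums given above, and the part of each in these folds was not tested. Results that rest on ESCs are therefore given with all 3 libraries, without C, and with the replicate letter as a block, which compares KO and WT libraries of the same letter. In ESCs, C deviated alike in the 2 genotypes, whereas A and B were hardly told apart. The block thus matches C with C, and its pairing of A with A and B with B is assumed.

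**Figure D1:**
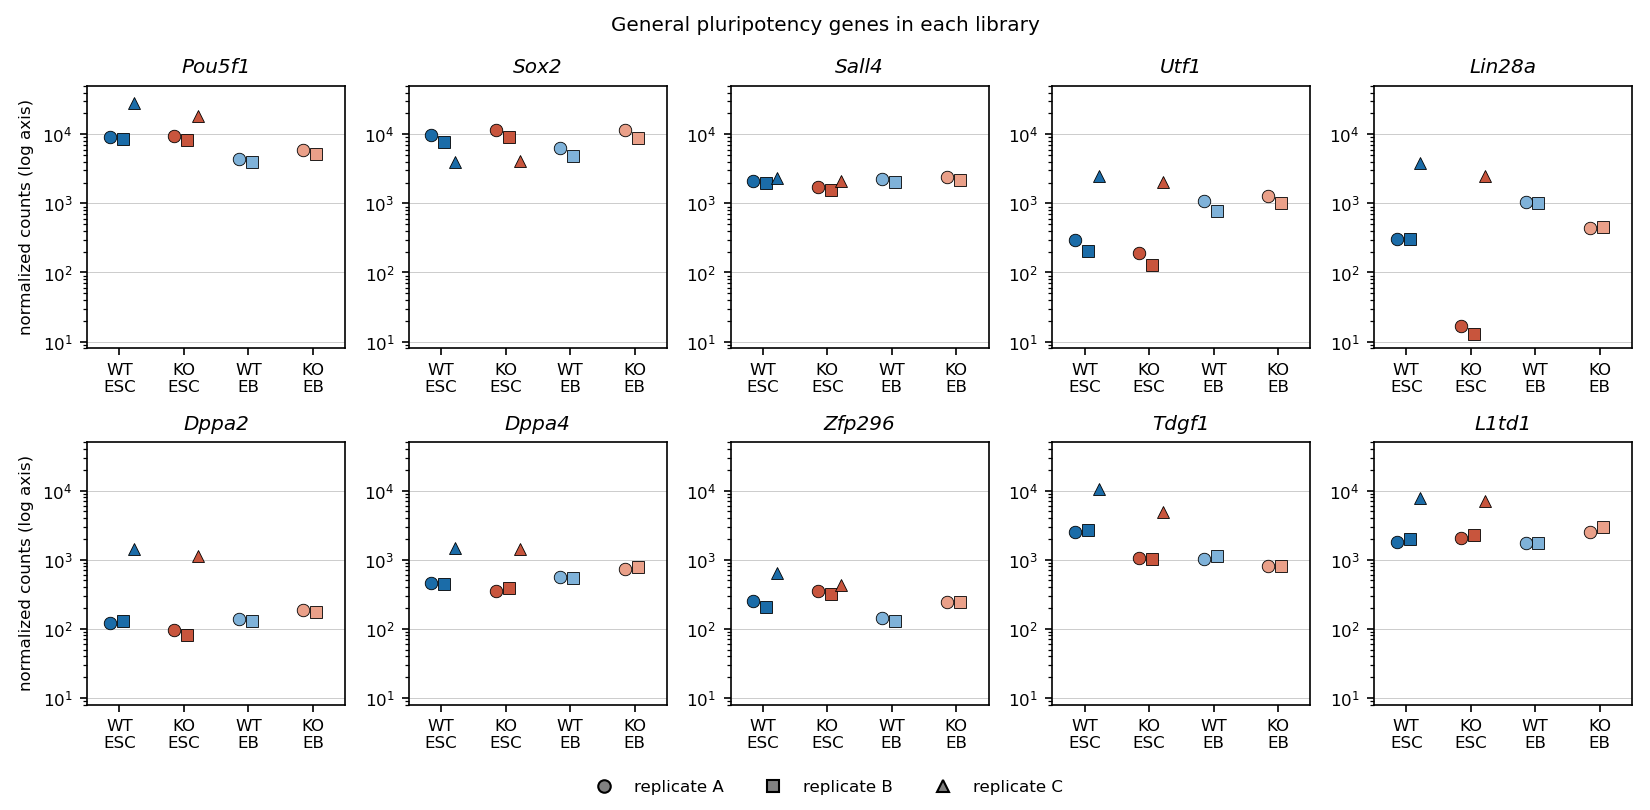
Normalized counts of the 10 general pluripotency genes in each of the 10 libraries, on a log axis, by group, with the shape marking the replicate letter. ESC replicate C (triangles) lies above A and B for 9 genes and below them for Sox2, and Lin28a is at 12.7 and 16.9 in replicates B and A of KO ESCs.

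KO ESCs were compared with WT ESCs to ask how the group stands without Mettl3 in naive conditions. No member passed the test with all 3 libraries per genotype, where 2.38% of all genes passed. Tdgf1 and Lin28a had the largest differences, both lower in KO in each of the 3 letters. The KO and WT libraries overlapped for all 10 members, while 9.23% of all genes had all KO libraries above all WT libraries and 8.78% had them below.

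Oct4's gene Pou5f1 had 9280, 8416 and 28269 normalized counts in replicates A, B and C of WT ESCs and 9512, 8389 and 18170 in KO. A and B were alike in the genotypes and C was lower in KO. The log2 difference of KO from WT was -0.20 (SE 0.49, adjusted p = 0.969). Sox2 had 9742, 7709 and 3913 in WT and 11678, 9072 and 4080 in KO, higher in KO in every letter. Its log2 difference was 0.19 (SE 0.46, adjusted p = 0.972). Sall4 had 2092, 1944 and 2329 in WT and 1748, 1580 and 2083 in KO. It was the steadiest member and was lower in KO in every letter, by 0.16 to 0.30 on the log2 scale (difference -0.24, SE 0.15, adjusted p = 0.524). Zfp296 had 253, 206 and 639 in WT and 346, 315 and 430 in KO. It was higher in KO in A and B and lower in C (0.16, SE 0.40, adjusted p = 0.969).

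Utf1, the chromatin-associated protein, had 291, 206 and 2517 normalized counts in WT and 189, 130 and 2064 in KO. It was lower in KO in every letter, by 0.29 to 0.66 on the log2 scale. Dppa2 had 123, 128 and 1403 in WT and 94.7, 81.7 and 1128 in KO. Its partner Dppa4 had 466, 449 and 1476 in WT and 351, 383 and 1433 in KO. Both were lower in KO in every letter, Dppa2 by 0.32 to 0.64 and Dppa4 by 0.04 to 0.41. The log2 differences over all libraries were -0.52 for Utf1 (adjusted p = 0.965), -0.44 for Dppa2 (adjusted p = 0.978) and -0.23 for Dppa4 (adjusted p = 0.979).

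Lin28a had 307, 303 and 3847 normalized counts in WT and 16.9, 12.7 and 2508 in KO. KO replicates A and B rest on 31 and 14 reads, above the floor of 3 reads. The difference was -4.11 and -4.47 on the log2 scale in A and B and -0.62 in C, so its size depended on the letter. Over all libraries it was -3.06 (SE 1.97, adjusted p = 0.525). L1td1 had 1806, 2009 and 7896 in WT and 2079, 2240 and 6985 in KO, with a log2 difference of 0.06 (SE 0.65, adjusted p = 0.999). Tdgf1, the Nodal co-receptor whose sequences are given above, had 2506, 2680 and 10422 in WT and 1047, 1022 and 4927 in KO. It was lower in KO by 1.26, 1.39 and 1.08 in A, B and C, a difference much more even than that of Lin28a (-1.24, SE 0.73, adjusted p = 0.477).

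With the replicate letter as a block, 5 members fell in KO ESCs and none rose, where 15.3% of all genes fell and 14% rose. Tdgf1 fell by 1.24 (SE 0.09, adjusted p = 0.00354), Lin28a by 3.06 (SE 0.78, adjusted p = 0.0398), Utf1 by 0.52 (adjusted p = 0.0191), Dppa2 by 0.44 (adjusted p = 0.0356) and Sall4 by 0.24 (adjusted p = 0.0373). Without C of both genotypes, 6 members fell and 1 rose, where 27.8% of all genes fell and 27.4% rose. These were the same 5 genes and Dppa4 on the lower side, with Lin28a at -4.29 (SE 0.13, adjusted p = 3.47e-07), and Zfp296 on the higher side at 0.53 (adjusted p = 0.00604). The libraries without C did not overlap for 6 members lower in KO, beside 38.8% of all genes, and 2 higher, beside 38.4%. Leaving out the KO C library alone, Lin28a fell by 5.51 (SE 1.08, adjusted p = 0.0229). That fit sets A and B of KO against A, B and C of WT, so the genotypes are unbalanced in C. With C as the only ESC library of each genotype, 4 members passed, beside 42.9% of all genes. All were lower in KO, with Zfp296 at -0.57 (adjusted p = 0.0241), so its direction depended on the libraries used. Counting by letter, 6 of 10 members were lower in KO in all 3 letters and 1, Sox2, was higher, beside 27.8% and 25.7% of all genes.

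**Figure D2:**
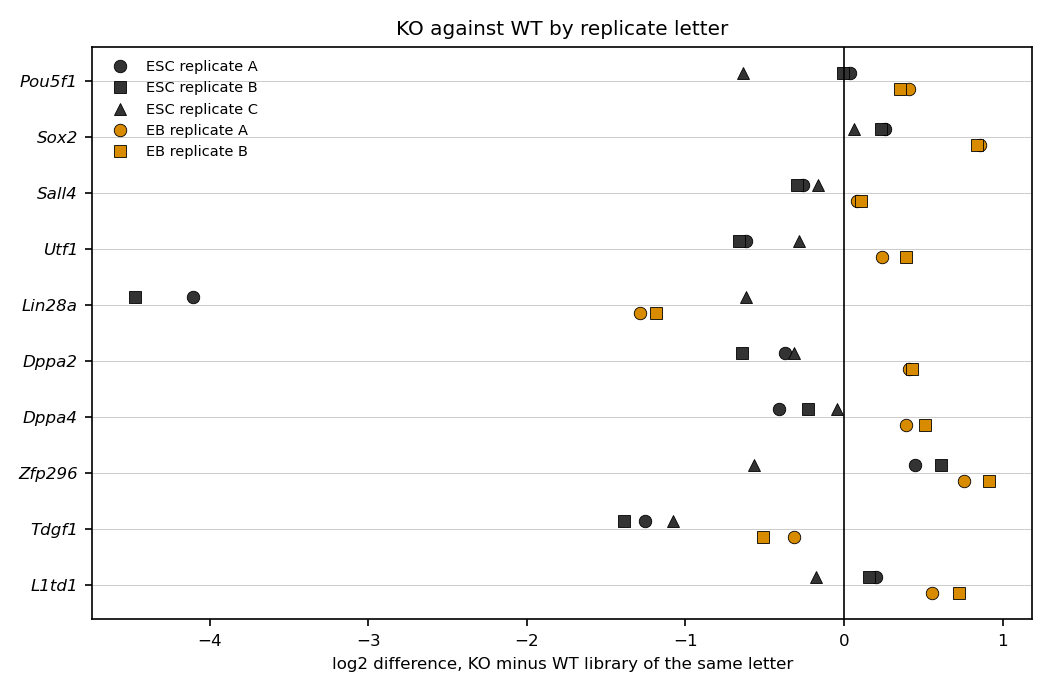
Log2 difference of the KO from the WT library of the same letter for each member, in ESCs (dark symbols, 3 letters) and in EBs (orange symbols, 2 letters), with 0 marking no difference. Tdgf1 is below 0 in all 5 pairs, Lin28a reaches -4.47 in ESC replicate B, and 8 genes are above 0 in both EB pairs.

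KO EBs were compared with WT EBs to ask how far the group persists after differentiation without Mettl3. Most members were higher in KO EBs: 6 of 10 were higher in both KO libraries than in both WT libraries, beside 36% of all genes, and Lin28a and Tdgf1 were lower, beside 38.9%. Sall4 and Utf1 overlapped between the genotypes. Sox2 and Zfp296 had the largest differences upward and Lin28a the largest downward. No member passed in the fit of all 10 libraries, in which 1.84% of all genes passed and which takes its spread partly from ESC replicate C.

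Sox2 had 6331 and 4918 normalized counts in replicates A and B of WT EBs and 11458 and 8805 in KO EBs. KO was above WT by 0.86 and 0.84 on the log2 scale in A and B (0.85 in all, SE 0.57, adjusted p = 0.647). Pou5f1 had 4431 and 4035 in WT and 5876 and 5160 in KO, a smaller difference of 0.38 (SE 0.60, adjusted p = 0.984). Sall4 had 2258 and 2042 in WT and 2386 and 2200 in KO, a difference of 0.09. Zfp296 had 144 and 130 in WT and 244 and 246 in KO, a difference of 0.84 (SE 0.49, adjusted p = 0.552). So of the DNA-binding factors, Sox2 and Zfp296 stood highest above WT and Sall4 least.

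Utf1 had 1072 and 764 normalized counts in WT EBs and 1263 and 1004 in KO EBs. Dppa2 had 139 and 131 in WT and 184 and 177 in KO, and Dppa4 558 and 540 in WT and 732 and 770 in KO. The partners were thus alike, at 0.42 for Dppa2 and 0.45 for Dppa4 on the log2 scale, and Utf1 was at 0.31 with overlapping libraries. L1td1 had 1728 and 1765 in WT and 2543 and 2922 in KO, a difference of 0.64. Lin28a had 1063 and 1023 in WT and 434 and 449 in KO, and the difference of -1.24 was close to equal in A and B. Tdgf1 had 1021 and 1135 in WT and 820 and 798 in KO, a difference of -0.41. The adjusted p of these 6 members was 0.932 or above.

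In a fit of the 4 EB libraries alone, 6 members rose in KO EBs and 2 fell, where 49.2% of all genes passed. The genes that rose were Pou5f1, Sox2, Dppa2, Dppa4, Zfp296 and L1td1, and those that fell were Lin28a (SE 0.09, adjusted p = 6.63e-05) and Tdgf1 (adjusted p = 0.00965). Sox2 had an adjusted p of 0.00443 and Zfp296 of 0.00134. The fit without ESC replicate C gave the same numbers in each direction, where 24.1% of all genes rose and 27.9% fell, and the fit with C as the only ESC library gave 8 called members beside 48.6% of all genes. With the letter as a block, although 2 EB pairs are too few to show that the letters pair them, Sox2, L1td1 and Dppa4 rose and Tdgf1 fell, where 9.27% of all genes rose and 13.4% fell. By letter, 8 members were higher in both letters, beside 42.6% of all genes, and 2 were lower, beside 45.6%. The endoderm sums given above fell in the same comparison, and their part in the members' values was not tested.

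The difference between the KO effect in EBs and that in ESCs was tested next. It lay above 0 for all 10 members, against 49.6% of all genes, with a median of 0.68 over the members and -0.005 over all genes. No member passed, where 0.475% of all genes did, and the adjusted p was 0.989 or above for each. The largest values were 1.83 for Lin28a (SE 3.12), 0.86 for Dppa2 (SE 1.93), 0.84 for Utf1 (SE 1.93) and 0.83 for Tdgf1 (SE 1.16). Tdgf1 and Lin28a were below WT in both stages, whereas Sall4, Utf1, Dppa2 and Dppa4 were lower in KO in all 3 ESC letters and higher in both EB letters. This last pattern held for 4 of 10 members and for 6.1% of all genes. The reverse pattern held for no member and for 6.46% of all genes.

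With the replicate letter as a block, the difference rose past the threshold for 4 members and for none in the other direction, where 2.81% of all genes were higher and 4.99% lower. These were Sox2 at 0.66 (SE 0.10, adjusted p = 0.0261), Tdgf1 at 0.83 (SE 0.13, adjusted p = 0.0308), Utf1 at 0.84 (SE 0.16, adjusted p = 0.0441) and Dppa2 at 0.86 (SE 0.17, adjusted p = 0.0482). Without C, 6 members passed as higher and none as lower, where 16.3% of all genes were higher and 19.9% lower. Lin28a led there at 3.05 (SE 0.18, adjusted p = 1.03e-05), followed by Dppa2 at 0.93, Tdgf1 at 0.91 and Dppa4 at 0.77. With C as the only ESC library, 7 members passed, beside 36.8% of all genes, and Lin28a turned to -0.62 (adjusted p = 0.0149). Leaving out WT ESC replicate C alone, a fit that keeps C of KO, left the difference above 0 for 7 of 10 members, with a median of 0.14.

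WT EBs were compared with WT ESCs to ask which members differentiation lowers. Pou5f1, Zfp296, Tdgf1 and L1td1 were lower in both WT EB libraries than in all 3 ESC libraries, beside 19.4% of all genes, and no member was higher throughout, beside 23.2%. The log2 differences were -1.94 for Tdgf1 (SE 0.82, adjusted p = 0.336), -1.62 for Pou5f1 (SE 0.55, adjusted p = 0.215), -1.23 for Zfp296 (SE 0.44, adjusted p = 0.245) and -0.81 for L1td1 (SE 0.73, adjusted p = 0.699). Sall4 stood at 0.02 (SE 0.17). No member passed, where 2.48% of all genes did. An unadjusted p under 0.05 was found for 3 members with limma and with edgeR, beside 2287 and 2343 of all 15781 genes. DESeq2 called Pou5f1 (adjusted p = 0.0335), beside 1525 of 15496 genes, and gave no adjusted p for Utf1, Lin28a and Dppa2.

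The direction of the other members depended on which ESC libraries were used. Against ESC replicates A and B, Utf1 rose by 1.88 in WT EBs, Lin28a by 1.77 and Dppa4 by 0.26. Tdgf1 fell by 1.27, Pou5f1 by 1.06, Zfp296 by 0.74 and Sox2 by 0.64, each with an adjusted p of 0.0279 or below. In that setting 22.5% of all genes rose and 23.7% fell. Against C alone, Sox2 rose by 0.51 (adjusted p = 0.0487) and 8 members fell, beside 76% of all genes called, with Dppa2 at -3.37, Tdgf1 at -3.27 and Utf1 at -1.47. Pou5f1, Tdgf1 and Zfp296 were thus lower in WT EBs in both settings, while Sox2, Utf1, Lin28a and Dppa4 passed in both with opposite signs. Dppa2, at 0.10 without C, and Sall4, at 0.09 without C and -0.12 against C alone, also had opposite signs. Without C the libraries did not overlap for 4 members higher in EBs, beside 34.3% of all genes, and for 5 lower, beside 37.6%. With the letter shared by ESCs and EBs as a block, which the data do not show to pair them, Utf1 rose and Tdgf1, Sox2, Pou5f1 and Zfp296 fell, where 13.6% of all genes rose and 14.8% fell.

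**Figure D3:**
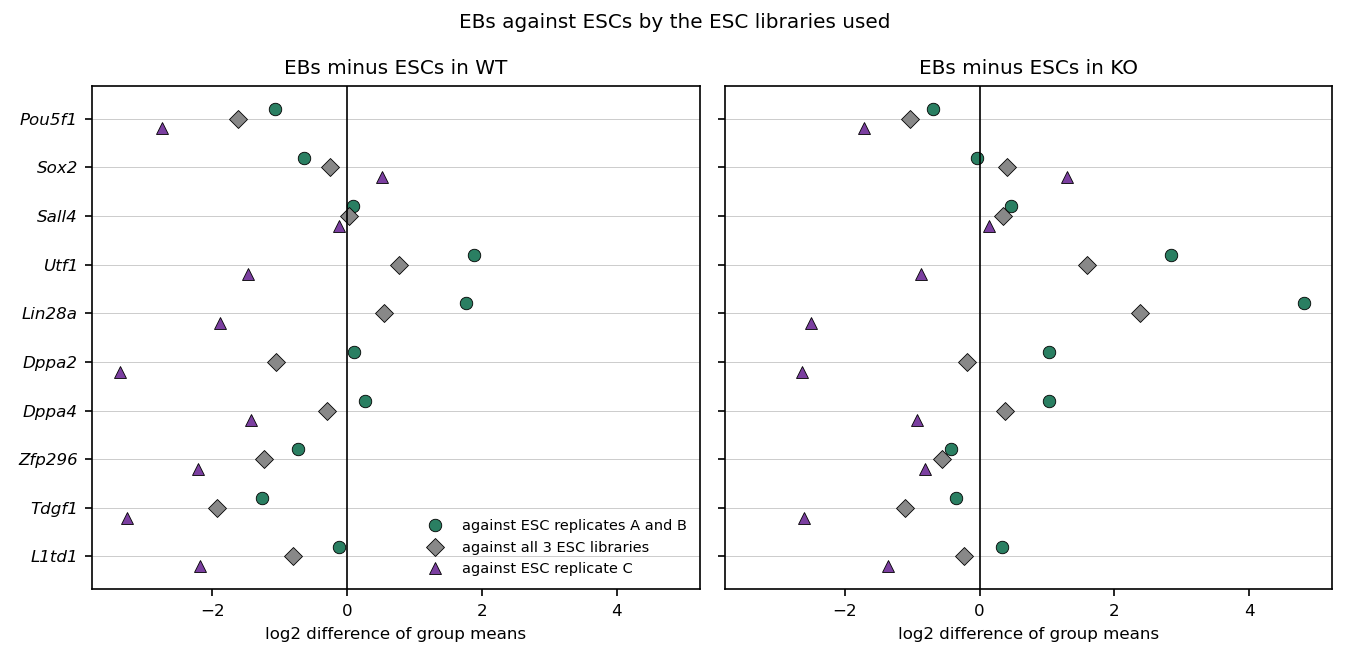
Log2 difference of the mean of the 2 EB libraries from ESC replicates A and B (circles), from all 3 ESC libraries (diamonds) and from ESC replicate C (triangles), for WT (left) and KO (right). Pou5f1, Zfp296 and Tdgf1 are below 0 in all 6 positions, while Utf1 and Lin28a are above 0 against A and B and below 0 against C.

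In the KO lines, Pou5f1, Zfp296 and Tdgf1 were lower in both KO EB libraries than in all KO ESC libraries, beside 20.5% of all genes, and Sall4 was higher, beside 21.2%. Pou5f1 was at -1.04 on the log2 scale (SE 0.55, adjusted p = 0.483), Tdgf1 at -1.10 (SE 0.82, adjusted p = 0.637) and Sall4 at 0.35 (SE 0.17, adjusted p = 0.433). Lin28a was at 2.38 (SE 2.21) and Utf1 at 1.60 (SE 1.37). No member passed, where 0.805% of all genes did. None had an unadjusted p under 0.05 with limma or with edgeR, beside 2136 and 2286 of all 15781 genes.

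Against KO ESC replicates A and B, 6 members rose in KO EBs and 3 fell, where 21.3% of all genes rose and 26% fell. Lin28a rose by 4.82 (SE 0.13, adjusted p = 1.70e-07), Utf1 by 2.84, Dppa2 and Dppa4 by 1.03 each, Sall4 by 0.46 and L1td1 by 0.34. Pou5f1 fell by 0.70, Zfp296 by 0.43 and Tdgf1 by 0.35. Sox2 was at -0.04 (adjusted p = 0.893) and its KO libraries overlapped between ESCs and EBs. Against C alone, Sox2 rose by 1.30 (adjusted p = 0.000845) and 8 members fell, beside 75.2% of all genes called, with Lin28a at -2.50. Without C the libraries did not overlap for 6 members higher in EBs, beside 33.1% of all genes, and for 3 lower, beside 39.9%. With the letter block 6 members rose and 2, Pou5f1 and Tdgf1, fell, where 12% of all genes rose and 16.1% fell. WT and KO therefore shared lower Pou5f1, Tdgf1 and Zfp296 in EBs against either set of ESC libraries, and the test of the difference between the genotypes is the one given above.

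Levels can be compared between members only per length of exon. Sox2 and Pou5f1 led in the 8 libraries other than ESC replicate C, where Pou5f1 was first in both genotypes. In C of WT, Tdgf1 at 3975, L1td1 at 2488 and Utf1 at 2051 normalized counts per kb of exon stood above Sox2 at 1902. In C of KO, L1td1 at 2201 stood above Sox2 at 1983. In WT EBs the order was Sox2 at 2734 ± 486 (SD, n = 2), Pou5f1 at 1883 ± 125, Utf1 at 748 ± 177, L1td1 at 550 ± 8.24, Tdgf1 at 411 ± 31.0, Sall4 at 388 ± 27.6, Dppa4 at 330 ± 7.67, Lin28a at 261 ± 7.08, Zfp296 at 67.3 ± 4.88 and Dppa2 at 55.1 ± 2.26. Of these neighbours only Tdgf1 and Sall4 overlapped. In KO EBs Sox2 reached 4925 ± 912 and Pou5f1 2455 ± 225. Dppa4 at 452 ± 16.3 and Sall4 at 414 ± 23.8 stood above Tdgf1 at 309 ± 5.90, and Dppa2 was again lowest at 73.8 ± 2.23. In KO ESC replicates A and B, Lin28a was lowest, at 3.70 ± 0.74, beside 76.3 ± 0.68 in WT. With all 3 ESC libraries, every neighbour in the order overlapped with the next in both genotypes.

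The level of Pou5f1 per kb was also set against that of Sox2. In ESC replicates A and B the ratio was 0.872 and 0.999 for WT and 0.745 and 0.846 for KO. It was 0.640 and 0.751 in WT EBs and 0.469 and 0.536 in KO EBs. In C it was 6.61 in WT and 4.08 in KO. The ratio was lower in KO than in WT in all 5 pairs of letters, and lower in both EB libraries than in all ESC libraries of the same genotype. KO ESCs and WT EBs overlapped. No test was made of this ratio, which was chosen after its parts were seen.

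**Figure D4:**
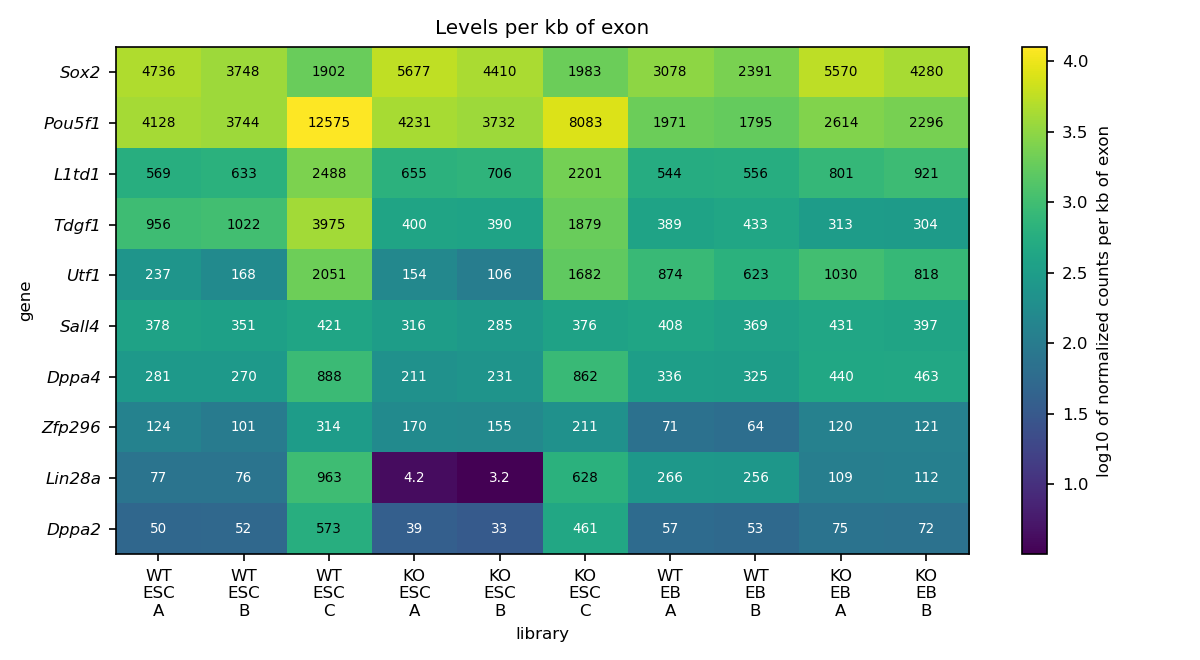
Levels of the 10 members in each library as normalized counts per kb of exon, with the colour on a log10 scale and the value written in each cell. Sox2 and Pou5f1 are at the top of most columns, Lin28a is at 4.2 and 3.2 in KO ESC replicates A and B, and Sox2 falls to 1902 and 1983 in the C columns.

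Some members have exons over other genes, and how reads there were counted is uncertain. The strand setting of the counting is not given in the sources used here, and the kit does not keep the strand. Of the Pou5f1 exons (chromosome 17, 35506018 to 35510772, plus strand, GRCm38), 14.1% lie over Gm19553 on the other strand. Gm19553 had 3525, 4110 and 13687 normalized counts in WT ESCs and 1758 and 1895 in WT EBs, and followed Pou5f1 more closely than any other gene tested for likeness. Of the Zfp296 exons (chromosome 7, 19577287 to 19580656, plus strand), 12.91% lie over Gemin7. Gemin7 in ESC replicates A and B had 192 and 208 in WT and 616 and 601 in KO, a larger difference in the same direction as Zfp296. In C, Gemin7 was at 379 in WT and 625 in KO, whereas Zfp296 was lower in KO there. Of the Lin28a exons (chromosome 4, 134003330 to 134018841, minus strand), 5.86% lie over Gm13061, which had 54, 44 and 2 reads in WT ESCs and none in KO ESCs. Of the Sall4 exons (chromosome 2, 168748332 to 168767943, minus strand), 9.5% lie over Gm14261. Sox2 (chromosome 3, 34650405 to 34652461, plus strand) and Utf1 (chromosome 7, 139943789 to 139945112, plus strand) share exons with no annotated gene.

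Other members have close copies elsewhere. Tdgf1 (chromosome 9, 110939603 to 110946158, minus strand) matches Tdgf1-ps1 at 98.8% over 512 bases. Tdgf1-ps1 had 1348, 1381 and 735 normalized counts in WT ESCs and 558, 627 and 319 in KO, and 541 and 583 in WT EBs and 388 and 383 in KO. It was lower in KO in every letter, as Tdgf1 was, but lower in C than in A and B, unlike Tdgf1. Dppa2 and Dppa4, neighbours on chromosome 16 (48303908 to 48319723 and 48283733 to 48294237, plus strand), match Gm9788 at 99.3% over 906 bases and Gm14058 at 99.4% over 532 bases. Both copies had reads in every library but C, where they had none, beside 1403 and 1128 normalized counts of Dppa2 and 1476 and 1433 of Dppa4. L1td1 (chromosome 4, 98726734 to 98738480, plus strand) matches Gm48515 at 91.7% over 519 bases. How the authors' counting handled such reads was not tested, and values of these 4 members carry that uncertainty.

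Members also differed in which other genes had a like profile over the 10 libraries, measured as the root mean square distance of centred log2 values. Among the nearest to the median of the members were Tomm20 at 0.179, Tmem126a at 0.187, Mapre2 at 0.188 and Naa60 at 0.194, among genes with a mean of 100 or more. Tomm20 belongs to the import complex of the mitochondrial outer membrane. Tomm20 had 1396, 1088 and 3673 normalized counts in WT ESCs and 1115, 847 and 2772 in KO ESCs, so it shared the high value in C. Lin28a had no near profile: its closest were the keratins Krt17 at 0.793 and Krt42 at 0.947. Krt42 had 4.35 and 2.72 in KO ESC replicates A and B and 497 in C, beside 227, 195 and 333 in WT. Zfp296 lay nearest to the nuclear receptor gene Nr0b1 at 0.145, and Sall4 to Luc7l2 at 0.051. Among the members, Dppa4 and L1td1 were the closest pair at 0.328, and Sox2 and Lin28a the farthest at 3.01.

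The same tests were read for genes around the members. Of 25 neighbours of Oct4 and Sox2 in the pluripotency network, 1 fell in KO ESCs and none rose: Trim28, a corepressor on chromatin, with 22644, 20314 and 27248 normalized counts in WT and 13352, 12088 and 13387 in KO, fell by 0.85 (SE 0.16, adjusted p = 0.0461). None passed in KO EBs. Of all genes, 2.38% passed in KO ESCs and 1.84% in KO EBs. Prdm14 fell by 1.74 in WT EBs against ESCs (SE 0.20, adjusted p = 0.00791), and Dppa3 by 2.00 in KO EBs against ESCs (SE 0.28, adjusted p = 0.0328). The median of the 25 for KO against WT was -0.11 in ESCs and 0.39 in EBs. For EBs against ESCs it was -1.01 in WT and -0.55 in KO. With the block, 7 of the 25 fell and 2 rose in KO ESCs, beside 15.3% and 14% of all genes. In KO EBs 3 fell and 6 rose, beside 13.4% and 9.27%. The members' medians in the same comparisons were -0.23, 0.40, -0.55 and 0.08, and those of all genes -0.02, -0.02, 0.09 and 0.06.

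Around Lin28a, 13 genes of the let-7 pathway were tested. Igf2bp3, an RNA-binding protein and let-7 target, fell in KO ESCs by 1.49 (SE 0.23, adjusted p = 0.0303) and in WT EBs against ESCs by 1.37 (adjusted p = 0.0415). Its relative Igf2bp1 fell in KO EBs by 1.06 (adjusted p = 0.0306), from 3960 and 3839 normalized counts in WT EBs to 1937 and 1808 in KO EBs. The other members of this list passed in no comparison. Lin28b, the paralogue of Lin28a, had 73.7, 80.1 and 188 in WT ESCs and 84.9, 113 and 219 in KO ESCs, higher in KO in every letter; it was singled out after its values were seen. The most abundant of the list, the ubiquitin ligase gene Trim71, was at -0.09 in KO ESCs (adjusted p = 0.963).

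Around Tdgf1, none of 13 tested genes of Nodal signalling passed in any comparison. With the block, 4 of the 13 rose and none fell in KO ESCs, beside 14% and 15.3% of all genes. In KO EBs 4 rose and 1 fell, beside 9.27% and 13.4%. Nodal itself, the ligand, singled out after its values were seen, had 342 and 306 normalized counts in WT EBs and 959 and 903 in KO EBs, a log2 difference of 1.52 (SE 0.36, adjusted p = 0.0858, 0.00295 with the block). Lefty1 and Lefty2, singled out in the same way, were also higher in KO EBs. Lefty1 had 64.4 and 72.3 in WT EBs and 785 and 793 in KO EBs. Lefty2 had 143 and 119 in WT EBs and 554 and 664 in KO EBs. The most abundant of the list, the protease gene Pcsk6, was at 0.59 in KO EBs (adjusted p = 0.979). Of 13 family relatives of the members, Dppa3 in KO EBs against ESCs was the only one that passed. The most abundant relative, Dppa5a, had 5821, 5803 and 43112 in WT ESCs and 2162, 2058 and 7741 in KO ESCs, a log2 difference of -1.80 (SE 0.84, adjusted p = 0.334, 0.00666 with the block). It was thus high in C and lower in KO in every letter, as were Tdgf1, Lin28a, Utf1, Dppa2 and Dppa4.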

How the data were processed

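Polyadenylated RNA of 10 libraries was used; a fibroblast library was not analysed here. The deposited table holds a normalized signal per Ensembl gene, made by the authors from read counts. The tools listed, without their roles, are HTSeq 0.6.0, TopHat2 2.0.10 with Bowtie, DESeq and CASAVA 1.8.2, with mm10 as the build, per the submitters' processing notes. Dividing each column by the value of 1 read gave whole reads for 100% of values within a tolerance of 0.01. Of 39179 identifiers, 37607 had a symbol, and 5 summary lines were left out.

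The 15781 genes with a mean of 10 or more were tested on log2(normalized count + 1) with limma 3.58.1 (trend, robust; R 4.3.3) over 4 group means, with 6 residual degrees of freedom. Fold changes are on that scale and understate those of low genes. The 5 contrasts were tested, two-sided, with Benjamini-Hochberg adjustment over all genes and a threshold of 0.05. Alternatives used edgeR 4.0.16 (quasi-likelihood) and DESeq2 1.42.0 on the recovered reads, other pseudocounts, filters and scaling, a replicate block, and fits leaving libraries out. The fit with C as the only ESC library, in which a lone library is assumed to vary like the EB groups, was added after seeing the data. The fits were tested on simulated counts in which ESC replicate C was not shifted from A and B. That test therefore does not show how the fits handle the shift of C seen here.

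The letters were taken to pair ESC libraries, because deviations from the group mean correlated between genotypes at 0.845, 0.828 and 0.858 for A, B and C. A and B also correlated with each other, at 0.809 and 0.812. These values match C across the genotypes, but do not show that A pairs with A and B with B. In EBs the value was 0.369 from 2 pairs, which do not decide it.

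Named genes are the 10 members, Mettl3, up to 3 called genes per list, comparison and direction, the most abundant gene of each list, and the genes nearest in profile, of which some are not reported here; other names are marked or share sequence with a member. Members and lists were chosen with earlier results of these data known. Gene positions and coding sequences came from GENCODE annotation, and copies were searched with blastn 2.17.0. Intervals and floors from reads cover counting error only.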

Additional observations from a re-analysis of the deposited data

Results flagged for a closer look

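The KO effect in EBs minus that in ESCs was singled out for 6 members, because the test of the difference passed with the replicate letter as a block or because every letter pair moved in opposite directions in the 2 stages. The difference was 0.66 on the log2 scale for Sox2, 0.83 for Tdgf1, 0.84 for Utf1 and 0.86 for Dppa2, and for these 4 it passed with that block. Sall4 at 0.33 and Dppa4 at 0.68, and again Utf1 and Dppa2, were lower in KO in all 3 ESC letters and higher in both EB letters. For Sall4 and Dppa4 the block gave adjusted p-values of 0.0985 and 0.0566, and the fit without ESC replicate C of both genotypes gave 0.0448 and 0.00113. Outside these 6, the difference for Lin28a changed sign with the libraries used (3.05 without C and -0.62 with C as the only ESC library). In the fit of all 10 libraries without a block, limma's adjusted p was 0.989 for Sall4 and 1 for the other 5.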

How the results depend on the processing

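With all libraries and no block, limma called no member in any of the 5 comparisons. In the order KO against WT in ESCs, the same in EBs, EBs against ESCs in WT, the same in KO, and the difference of KO effects, the replicate block called 5, 4, 5, 8 and 4 members, leaving out ESC replicate C of both genotypes called 7, 8, 7, 9 and 6, and C as the only ESC library called 4, 8, 9, 9 and 7. The 4 EB libraries alone called 8, and DESeq2 called 1 in WT EBs against ESCs. Leaving out 1 library gave 0 to 1 in KO ESCs (1 without KO replicate C) and 0 to 0 elsewhere. Over the alternative settings, 862 of 1020 member values kept their direction and side of the threshold, and 97 kept their direction and passed it. The direction reversed for 61, some of which also passed. No call could be lost, because no member passed in the main fit. These counts include the fit with C as the only ESC library.

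Reversals in KO against WT ESCs were L1td1 at -0.00877 with edgeR, -0.0526 with DESeq2 and -0.18 with C only, Pou5f1 at 0.0155 without C, and Zfp296 at -0.57 with C only. In WT EBs against ESCs, edgeR, DESeq2 and C only gave Utf1 -0.11, -0.13 and -1.47 and Lin28a -0.49, -0.52 and -1.88. Without C and with the block, Dppa2 was at 0.10 and 0.13 and Dppa4 at 0.26 and 0.31, and with C only Sox2 was at 0.51 and Sall4 at -0.12. In KO EBs against ESCs, edgeR, DESeq2 and C only gave Lin28a -0.94, -0.94 and -2.50. Without C and with the block, Sox2 was at -0.0353 and -0.00398, Dppa2 at 1.03 and 1.00 and L1td1 at 0.34 and 0.40, and with C only Utf1 was at -0.87 and Dppa4 at -0.93. The difference for Lin28a was -0.45 with edgeR, -0.42 with DESeq2 and -0.62 with C only.

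Leaving out 1 library at a time, KO against WT in ESCs ranged from -0.54 to 0.36 for Pou5f1, -0.20 to 0.63 for Sox2, -1.76 to 0.60 for Utf1, -1.67 to 0.71 for Dppa2, -0.88 to 0.34 for Dppa4, -0.16 to 0.66 for Zfp296 and -0.50 to 0.74 for L1td1. WT EBs against ESCs ranged from -0.64 to 0.0227 for Sox2, -0.0512 to 0.0938 for Sall4, -0.0609 to 1.77 for Lin28a, -1.65 to 0.10 for Dppa2 and -0.60 to 0.26 for Dppa4. KO EBs against ESCs ranged from -0.0353 to 0.72 for Sox2, -0.86 to 1.03 for Dppa2 and -0.54 to 0.34 for L1td1. The difference ranged from -0.28 to 2.07 for Utf1, -0.29 to 2.08 for Dppa2 and -0.10 to 1.15 for L1td1. A fit without C of 1 genotype sets its A and B against a group that keeps C. For KO against WT in ESCs the members' median was 0.35 without WT C and -0.71 without KO C. It was -0.47 and -0.52 without WT A and B, and -0.06 and 0.06 without KO A and B. The cause of these changes was not tested. Over all genes, 376 passed in KO ESCs, 4627 with the block, 8715 without C of both genotypes and 1959 with DESeq2. Depth limits low values most in C, where 3 reads are 8.33 to 9.88 normalized counts.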
